A study of Homo sapiens with 9 samples.

Results

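GDF15, LIF, KITLG and NTN1 encode secreted signalling proteins whose genes have each been linked to the tumour suppressor p53. Their messenger RNA was followed through 3 groups of 3 libraries from A2780 cells. The 4 genes were matched by Ensembl identifier to 4 of the 24542 rows of the gene count table, and all 4 were among the 15558 genes that passed a filter on low counts. They were selected with their counts and fitted changes between these same groups already known, so their own values are given as a description and carry no p-value.

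A2780 is an established human ovarian carcinoma line, and its genotype is given as WT in every group. All cells grew in complete DMEM with fetal bovine serum, penicillin and streptomycin, and were harvested after 96 h. The DMSO group received 0.5% DMSO, the cisplatin group 0.6 µM of the drug written "Cispt" in the labels, and the Pt-ttpy group 5.5 µM of Pt-ttpy, each drug at its IC80. Cisplatin crosslinks DNA, and Pt-ttpy is, from the series title, a platinum complex that binds G-quadruplexes, folded structures of guanine-rich nucleic acid. The 2 drug doses differ, so the comparison between the drugs holds for these doses only. Libraries are called DMSO, cisplatin or Pt-ttpy 1 to 3 by the replicate number in their titles. The titles call them biological replicates without saying that they came from separate cultures, so the spread between libraries may be partly technical.

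p53 is a transcription factor that DNA damage stabilises, and its targets include secreted proteins through which a damaged cell can signal to others. GDF15, a stress cytokine of the TGF-β superfamily, acts on the brain through the receptor GFRAL with its partner RET, and is also induced by the integrated stress response. LIF, a cytokine of the interleukin-6 family, signals through LIFR and IL6ST (gp130) to JAK kinases and STAT3. KITLG, or stem cell factor, is the ligand of the receptor tyrosine kinase KIT. NTN1, netrin-1, guides axons through DCC, neogenin (NEO1) and the UNC5 receptors, several of which are dependence receptors that can promote cell death when no ligand is bound.

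Totals ranged from 31.3 to 40.8 M counts per library. DMSO 2 and cisplatin 2 stood apart from the other 7 libraries in how genes followed GC content: the Spearman correlation across genes between a library's deviation and transcript GC was 0.55 and 0.43 in those 2 and between -0.36 and -0.18 in the others. The fitted log2 differences of the 4 factors are therefore also given without those 2 libraries. Group means, overlaps and profiles are given with all 9 libraries. Markers of epithelial and Müllerian carcinoma cells were nearly absent: the 9 markers summed to 0.125 to 0.773 CPM (counts scaled to a common library size with TMM factors) in DMSO libraries, 1.9 to 4 with cisplatin and 1.02 to 1.44 with Pt-ttpy. KRT18 and KRT19 had at most 2 counts in a library, PAX8 had 0 counts in the DMSO and Pt-ttpy libraries, and EPCAM and KRT8 were called higher with cisplatin. Of the 9 fibroblast markers, 8 were tested. All 9 summed to 1079 to 1165 CPM in DMSO, 1717 to 1983 with cisplatin and 1794 to 1875 with Pt-ttpy. Either drug against DMSO called 5 higher and 0 lower. The largest were COL3A1 and DCN, at means of 482 and 324 CPM in DMSO. COL1A1, COL1A2 and THY1 were not called with either drug, and FAP had 0 counts in every library. Leukocyte markers summed to at most 5.8 CPM and endothelial markers to at most 0.401 CPM. The part of these marker differences in the results below was not tested. In such bulk RNA, fewer cells of a type and less RNA per cell cannot be told apart.

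RefSeq promoter windows (build GRCh38.p14, from 250 bases before a gene's start to 50 after) were matched for 2 of the 4 factors. Only these 2 had a window, so only they are shown: GDF15, the factor with the largest difference between groups, and KITLG, the factor with the fewest counts. The last 130 bases before each start are printed on the gene's strand, with capitals marking TATAAA and GGGCGG (written CCGCCC where it lies on the opposite strand). The RefSeq start of GDF15 lies inside the GENCODE span given for the gene below, which also holds transcripts with an earlier start.
GDF15, chr19:18386028-18386157, plus strand: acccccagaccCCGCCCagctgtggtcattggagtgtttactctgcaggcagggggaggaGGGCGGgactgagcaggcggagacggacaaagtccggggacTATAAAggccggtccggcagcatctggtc
KITLG, chr12:88580472-88580601, minus strand: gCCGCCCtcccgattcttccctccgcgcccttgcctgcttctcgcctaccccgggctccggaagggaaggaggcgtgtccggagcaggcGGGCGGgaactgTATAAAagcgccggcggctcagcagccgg

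Both promoters carried TATAAA at the same place, from -29 to -24 counted from the start, a sequence found on either strand in 11.5% of all 35116 windows. Both also held GGGCGG, the core of a GC box, once on each strand, as 45.0% of windows did at least once. In GDF15 these matches lay at -70 to -65 and at -119 to -114, and in KITLG at -41 to -36 and at -129 to -124. A G-quadruplex pattern, meaning 4 runs of at least 3 G separated by short loops, matched the opposite strand of KITLG from -126 to -101, where it overlaps the distal GGGCGG, and did not match in GDF15. That pattern occurred in 25.0% of windows. The p53 decamer (6.63% of windows), CACGTG (7.26%), TGACGTCA (1.85%), TTGCATCA (0.866%) and TTCNNNGAA (7.66%) matched neither window on either strand. The decamer searched was RRRCWWGYYY, where R is A or G, W is A or T and Y is C or T. Only exact matches counted, so a p53 site with a mismatched base would be missed. The search therefore does not show that such sites are absent. All motif results are matches of letters, and no binding was measured.

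GDF15 (ENSG00000130513) lies on chromosome 19, from 18374731 to 18389176 on the plus strand of GRCh38, with 5 exon blocks that share no base with exons of another gene in GENCODE 29. The DMSO libraries held 6.89, 11.6 and 6.99 CPM, the cisplatin libraries 104, 116 and 76.7 CPM, and the Pt-ttpy libraries 15.1, 16.3 and 12.9 CPM. The 3 groups did not overlap: every cisplatin library was above every Pt-ttpy library, and every Pt-ttpy library above every DMSO library. Group means were 8.49 ± 2.69 CPM in DMSO, 99.1 ± 20.3 with cisplatin and 14.8 ± 1.73 with Pt-ttpy (SD, n = 3). The fitted level was 11.7-fold higher with cisplatin than in DMSO (log2 difference 3.55, SE 0.23) and 1.74-fold higher with Pt-ttpy than in DMSO (log2 difference 0.80, SE 0.22). Between the drugs, cisplatin was 6.71-fold above Pt-ttpy (log2 difference of Pt-ttpy against cisplatin -2.75, SE 0.22). Without DMSO 2 and cisplatin 2, the log2 differences for GDF15 were 3.71, 1.09 and -2.61 in the same order.

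LIF (ENSG00000128342), on chromosome 22 from 30240447 to 30246851 on the minus strand, has 3 exon blocks. These share 92 and 175 bases with the antisense genes LIF-AS1 and AC004264.1, whose reads could not be told apart from those of LIF if the counting ignored strand, which is not known here. LIF stood at 6.5, 9.28 and 6.39 CPM in DMSO, at 14.9, 18.1 and 14.2 CPM with cisplatin and at 8.98, 6.65 and 7.05 CPM with Pt-ttpy. Every cisplatin library lay above all 6 others, while Pt-ttpy and DMSO libraries overlapped. Mean levels were 7.39 ± 1.64, 15.7 ± 2.1 and 7.56 ± 1.25 CPM (SD, n = 3). LIF was 2.13-fold higher with cisplatin than in DMSO (log2 difference 1.09, SE 0.20), and cisplatin was 2.08-fold above Pt-ttpy (log2 difference of Pt-ttpy against cisplatin -1.06, SE 0.20). The log2 difference between Pt-ttpy and DMSO was 0.03 (SE 0.20), and it ran from -0.11 without Pt-ttpy 1 to 0.23 without DMSO 2. Without both DMSO 2 and cisplatin 2 it was also 0.23.

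NTN1 (ENSG00000065320) spans 9021542 to 9244000 on the plus strand of chromosome 17, with 8 exon blocks and no exon base shared with another gene. It stood at 11.5, 14.5 and 9.01 CPM in DMSO, at 17.8, 21.9 and 15.1 CPM with cisplatin and at 9.17, 11.3 and 8.42 CPM with Pt-ttpy. The cisplatin libraries were again all above the DMSO and Pt-ttpy libraries, which overlapped each other. The gap was small: cisplatin 3, at 15.1 CPM, was just above DMSO 2, at 14.5 CPM. Means for NTN1 were 11.7 ± 2.74 CPM in DMSO, 18.2 ± 3.44 with cisplatin and 9.64 ± 1.51 with Pt-ttpy (SD, n = 3). NTN1 was 1.57-fold higher with cisplatin than in DMSO (log2 difference 0.65, SE 0.21), and cisplatin was 1.89-fold above Pt-ttpy (log2 difference of Pt-ttpy against cisplatin -0.92, SE 0.21). Pt-ttpy against DMSO gave a log2 difference of -0.27 (SE 0.21) for NTN1, which was -0.08 without DMSO 2 and cisplatin 2.

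KITLG (ENSG00000049130) lies on the minus strand of chromosome 12, from 88492793 to 88580851, and 80 bases of its 12 exon blocks are shared with the antisense gene AC024941.2. It was by far the least counted of the 4, with 13 to 60 counts in a library. KITLG gave 53, 36 and 60 counts in DMSO (1.49, 1.03 and 1.5 CPM), 43, 13 and 32 with cisplatin (1.38, 0.308 and 0.949 CPM) and 25, 35 and 22 with Pt-ttpy (0.769, 0.987 and 0.652 CPM). All 3 Pt-ttpy libraries were below all 3 DMSO libraries, by a narrow margin between Pt-ttpy 2 and DMSO 2. The cisplatin libraries were scattered, with 1 inside the DMSO range, 1 inside the Pt-ttpy range and cisplatin 2 below all 8 others. Means were 1.34 ± 0.268, 0.88 ± 0.542 and 0.803 ± 0.17 CPM (SD, n = 3). The fitted log2 difference of KITLG was -0.74 (SE 0.50) for Pt-ttpy against DMSO and -0.89 without DMSO 2 and cisplatin 2. For cisplatin against DMSO it was -0.62 (SE 0.50) and depended on single libraries, from -1.10 without cisplatin 1 to -0.20 without cisplatin 2. Between the drugs the KITLG difference was -0.12 (SE 0.51), and its sign was not settled: it ran from -0.53 without cisplatin 2 to 0.37 without cisplatin 1.

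**Figure D1:**
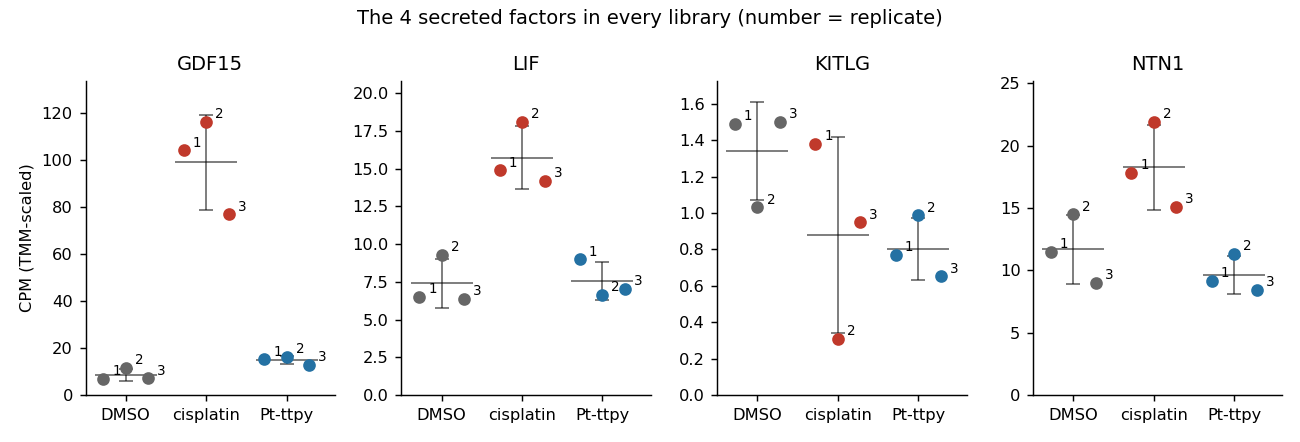
CPM (y axis, linear, TMM-scaled, from 0, with a separate scale per gene) of GDF15, LIF, KITLG and NTN1 in every library, by group on the x axis. Numbered points are replicates, horizontal lines are means and bars are SDs over 3 libraries. Cisplatin libraries lie above all others for GDF15, LIF and NTN1, GDF15 is also higher with Pt-ttpy than in DMSO, and the cisplatin libraries of KITLG span 0.308 to 1.38 CPM.

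DMSO 2 and cisplatin 2 were the highest libraries of their groups for GDF15, LIF and NTN1 and the lowest for KITLG. GC content of the transcripts was 62.9% for GDF15, 56.9% for LIF and 62.5% for NTN1, against 37.3% for KITLG and a median of 49.4% over 13278 tested genes. Within groups, the pooled SD of the log2 level was 0.31 for GDF15, 0.232 for LIF, 0.271 for NTN1 and 0.398 for KITLG. Leaving out both libraries kept the direction of each cisplatin difference, with log2 values of 1.18 for LIF, 0.69 for NTN1 and -0.35 for KITLG against DMSO. For Pt-ttpy against cisplatin these were -0.94 for LIF, -0.77 for NTN1 and -0.54 for KITLG.

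To compare the genes with each other, levels were divided by exon length. Per kilobase, GDF15 was the highest in each group, at 4.07 ± 1.29 CPM per kb in DMSO, 47.5 ± 9.72 with cisplatin and 7.08 ± 0.83 with Pt-ttpy (SD, n = 3). LIF and NTN1 did not differ beyond their spread in DMSO, at 1.86 ± 0.412 and 1.83 ± 0.43 CPM per kb, nor with Pt-ttpy, at 1.91 ± 0.314 and 1.51 ± 0.237. With cisplatin, LIF at 3.96 ± 0.529 CPM per kb was above NTN1 at 2.86 ± 0.538 in every library. KITLG was the lowest in each group, at 0.216 ± 0.0431, 0.142 ± 0.0873 and 0.129 ± 0.0274 CPM per kb in DMSO, cisplatin and Pt-ttpy.

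The share of all genes that met the same condition gives the background for these 4. Cisplatin libraries were all above DMSO libraries for 3 of the 4 factors, as for 18.6% of the 15558 tested genes. Pt-ttpy libraries were all above DMSO for 1 factor, GDF15, against 20.3% of tested genes, and all below for 1, KITLG, against 20.6%. Pt-ttpy libraries were all below cisplatin libraries for 3 factors, against 10.1% of genes. Since the factors were selected on these contrasts, nothing is read from their counts, and no call is given for them. The 2 comparisons against DMSO share the same 3 DMSO libraries.

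Calls, given for the gene groups below, rest on the edgeR quasi-likelihood test, with a threshold of 0.05 on the adjusted p. Among all tested genes, cisplatin against DMSO called 10.7% higher and 9.78% lower, Pt-ttpy against DMSO 5.59% higher and 6.45% lower, and Pt-ttpy against cisplatin 0.0578% higher and 0.456% lower. The balance against DMSO depended on scaling. TMM factors gave 1669 higher and 1521 lower genes for cisplatin and 870 higher and 1004 lower for Pt-ttpy, whereas upper-quartile factors gave 1940 and 913 for cisplatin and 1050 and 666 for Pt-ttpy. The median log2 change of all tested genes was then 0.09 and 0.10 in place of 0.01 and 0.03.

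The fitted log2 differences of the factors shifted when 1 library was left out. Those of GDF15 ran from 3.42 to 3.84 for cisplatin against DMSO, from 0.67 to 1.09 for Pt-ttpy against DMSO and from -2.90 to -2.61 for Pt-ttpy against cisplatin. LIF ran from 0.98 to 1.29 for cisplatin against DMSO and from -1.20 to -0.94 for Pt-ttpy against cisplatin. NTN1 ran from 0.49 to 0.84 for cisplatin against DMSO, from -0.43 to -0.09 for Pt-ttpy against DMSO and from -1.05 to -0.77 between the drugs. None of these ranges crossed 0, unlike those of LIF for Pt-ttpy against DMSO and of KITLG between the drugs.

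**Figure D2:**
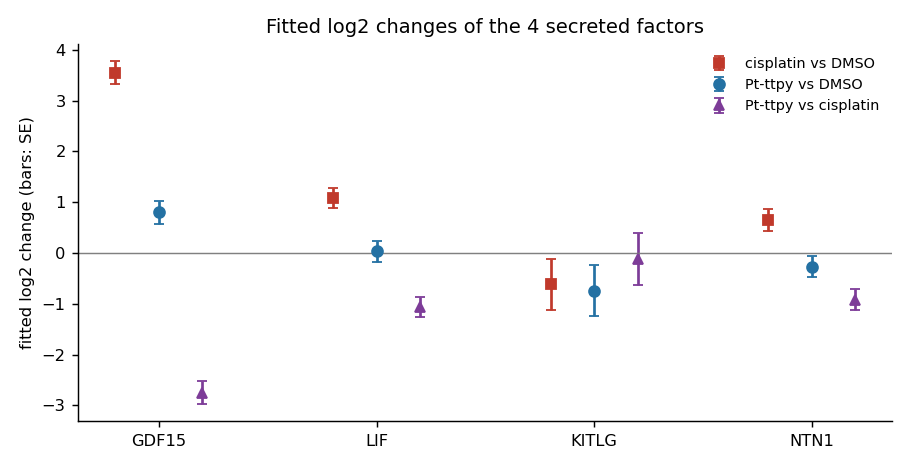
Fitted log2 differences (y axis) of the 4 factors (x axis) for cisplatin against DMSO (squares), Pt-ttpy against DMSO (circles) and Pt-ttpy against cisplatin (triangles), with bars for the SE. GDF15 has the largest values, 3.55, 0.80 and -2.75, and the bars of KITLG are the widest.

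The receptor list, like the other gene lists, was chosen with earlier results of these data known, so its calls may not be independent of that choice. Of 12 receptor genes, 7 passed the count filter. Cisplatin against DMSO called 1 higher and 1 lower, Pt-ttpy against DMSO called 1 higher and 0 lower, and Pt-ttpy against cisplatin called 0. The median log2 change over the 7 receptors was -0.08, 0.03 and 0.17 in these contrasts, beside 0.01, 0.03 and 0.00 over all tested genes. The receptor called higher with either drug was NEO1, a receptor of netrins and repulsive guidance molecules. NEO1 stood at 205, 229 and 216 CPM in DMSO, at 344, 370 and 332 CPM with cisplatin and at 319, 332 and 327 CPM with Pt-ttpy. All 6 drug libraries lay above the 3 DMSO libraries. NEO1 rose by a log2 change of 0.69 (SE 0.09) with cisplatin (edgeR adjusted p = 0.000641) and of 0.59 (SE 0.09) with Pt-ttpy (edgeR adjusted p = 0.00464), higher in 3 of 3 libraries each, and both calls held in all 9 fits without 1 library. The drugs differed by -0.10 (SE 0.09, edgeR adjusted p = 0.832), with overlapping libraries.

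LIFR, the ligand-binding receptor chain for LIF, fell with cisplatin while its ligand LIF stood higher there. LIFR was at 9.17, 5.04 and 8.99 CPM in DMSO, 3.48, 4.12 and 3.88 CPM with cisplatin and 5.51, 4.48 and 4.71 CPM with Pt-ttpy. Its log2 change was -1.01 (SE 0.24) with cisplatin (edgeR adjusted p = 0.0147), a call that was lost without DMSO 3 (0.0556). With Pt-ttpy the LIFR difference was -0.66 (SE 0.24, edgeR adjusted p = 0.0913), and Pt-ttpy 1 overlapped DMSO 2. The partner chain IL6ST was at 115, 51.5 and 118 CPM in DMSO, 98.6, 61.3 and 109 CPM with cisplatin and 99, 102 and 103 CPM with Pt-ttpy, so its low values were those of DMSO 2 and cisplatin 2. IL6ST gave log2 differences of -0.08 (SE 0.28) and 0.09 (SE 0.28) against DMSO, neither of them called.

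Of the other receptors, RET, the signalling partner of GFRAL, averaged 3.19 ± 0.307 CPM in DMSO, 4.08 ± 0.999 with cisplatin and 3.26 ± 0.297 with Pt-ttpy, and was not called in any contrast. GFRAL itself had 0 counts in all 9 libraries, as did the netrin receptors DCC and DSCAM. KIT, the receptor of KITLG, and the netrin receptor UNC5D had at most 2 counts in a library. A count of 0 allows up to 3 counts, or 0.0711 to 0.0966 CPM depending on the library, for counting error only. UNC5B, a netrin dependence receptor, was at 6.27, 11.3 and 9.28 CPM in DMSO, 6.89, 6.77 and 5.51 CPM with cisplatin and 7.85, 7.44 and 6.61 CPM with Pt-ttpy, with overlapping groups. UNC5C had libraries that did not overlap between any groups, at 0.732 to 1.02 CPM in DMSO, 1.1 to 1.26 with cisplatin and 1.38 to 1.81 with Pt-ttpy, but was not called (edgeR adjusted p = 0.43 for cisplatin and 0.114 for Pt-ttpy against DMSO). UNC5A held 0.619, 1.66 and 0.923 CPM in DMSO, 0.612, 0.592 and 0.237 CPM with cisplatin and 0.677, 0 and 0.77 CPM with Pt-ttpy, where Pt-ttpy 2 had 0 counts and the other libraries 22 and 26. All cisplatin libraries were below DMSO for UNC5A, with a log2 difference of -1.14 (SE 0.87), while Pt-ttpy overlapped DMSO, and it was not called in any contrast.

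**Figure D3:**
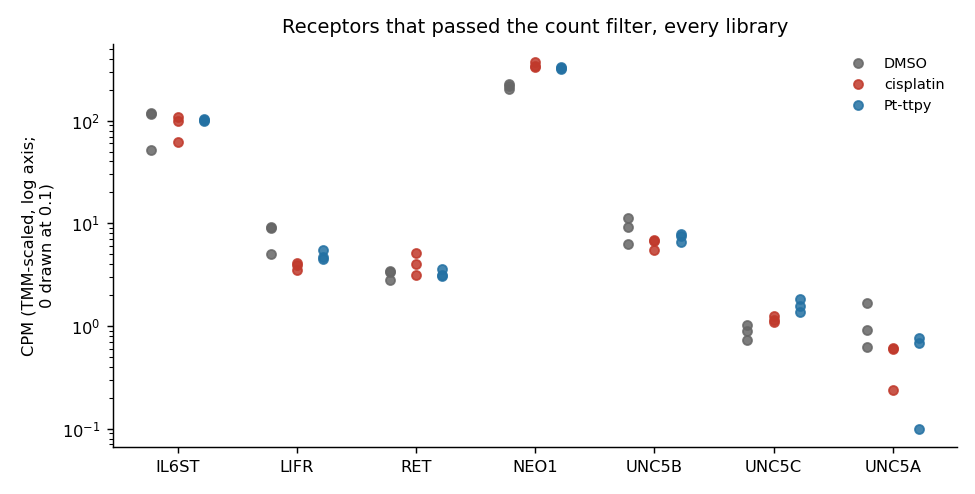
CPM (y axis, log scale, a value of 0 drawn at 0.1) of the 7 receptor genes that passed the count filter (x axis) in every library, coloured by group. NEO1 is at 205 to 229 CPM in DMSO and at 319 to 370 CPM in the drug libraries, LIFR is lower with cisplatin than in DMSO, and the other 5 genes were not called.

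Ligands related to the 4 factors were taken from the TGF-β superfamily, the interleukin-6 family, the cytokines of related receptor kinases, and the netrins and repulsive guidance molecules. Of 36 such genes, 23 were tested. Cisplatin against DMSO called 5 higher and 2 lower, with a list median of 0.56 beside 0.01 for all tested genes. Pt-ttpy against DMSO called 1 higher and 1 lower, with a median of 0.18 beside 0.03, and Pt-ttpy against cisplatin called 0 higher and 2 lower, with a median of -0.14 beside 0.00. The gene called higher with both drugs was CTF1, cardiotrophin-1, which signals through the same receptor chains as LIF. CTF1 stood at 5.94, 9.16 and 5.59 CPM in DMSO, 19.6, 30.7 and 24.4 CPM with cisplatin and 17.4, 20.9 and 17.9 CPM with Pt-ttpy. CTF1 rose by 1.86 on the log2 scale (SE 0.22) with cisplatin (edgeR adjusted p = 0.0004) and by 1.44 (SE 0.22) with Pt-ttpy (edgeR adjusted p = 0.0048), and both calls held in all 9 fits without 1 library. Unlike LIF, CTF1 gave overlapping drug groups, with a difference of -0.41 between the drugs (SE 0.21, edgeR adjusted p = 0.664).

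CSF1, a macrophage growth factor whose receptor is related to KIT, was at 3.09, 4.58 and 3.09 CPM in DMSO, 15.2, 16.1 and 13.4 CPM with cisplatin and 4.58, 7.84 and 5.84 CPM with Pt-ttpy. CSF1 rose by 2.05 on the log2 scale (SE 0.24) with cisplatin (edgeR adjusted p = 0.000349). It was lower with Pt-ttpy than with cisplatin by a log2 change of -1.29 (SE 0.23, edgeR adjusted p = 0.0301), a call lost in 7 of 9 fits without 1 library (highest adjusted p 0.189), kept without DMSO 1 or DMSO 2. DRAXIN, a secreted guidance protein that binds netrin-1 and DCC, had 8, 8 and 0 counts in DMSO, 106, 261 and 65 with cisplatin and 3, 6 and 4 with Pt-ttpy. Its rise with cisplatin (log2 4.67, SE 0.74, edgeR adjusted p = 0.00259) held in all 9 fits without 1 library. The DRAXIN difference between the drugs (-4.88, SE 0.76, edgeR adjusted p = 0.0173) was lost in 4 of them, without cisplatin 2 or any Pt-ttpy library, with adjusted p up to 0.134.

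TGFB1, the founding TGF-β, fell with both drugs, from 229 ± 43.9 CPM in DMSO to 170 ± 4.43 with cisplatin (log2 -0.43, edgeR adjusted p = 0.0321) and 164 ± 9.26 with Pt-ttpy (log2 -0.48, edgeR adjusted p = 0.0304). The TGFB1 call for Pt-ttpy was lost without any 1 of the 3 Pt-ttpy libraries (adjusted p up to 0.123), and that for cisplatin in 7 of 9 fits without 1 library (up to 0.0768), all but those without DMSO 1 or DMSO 2. Upper-quartile factors ended both TGFB1 calls, and the 6 libraries of the contrast alone ended that for cisplatin.

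**Figure D4:**
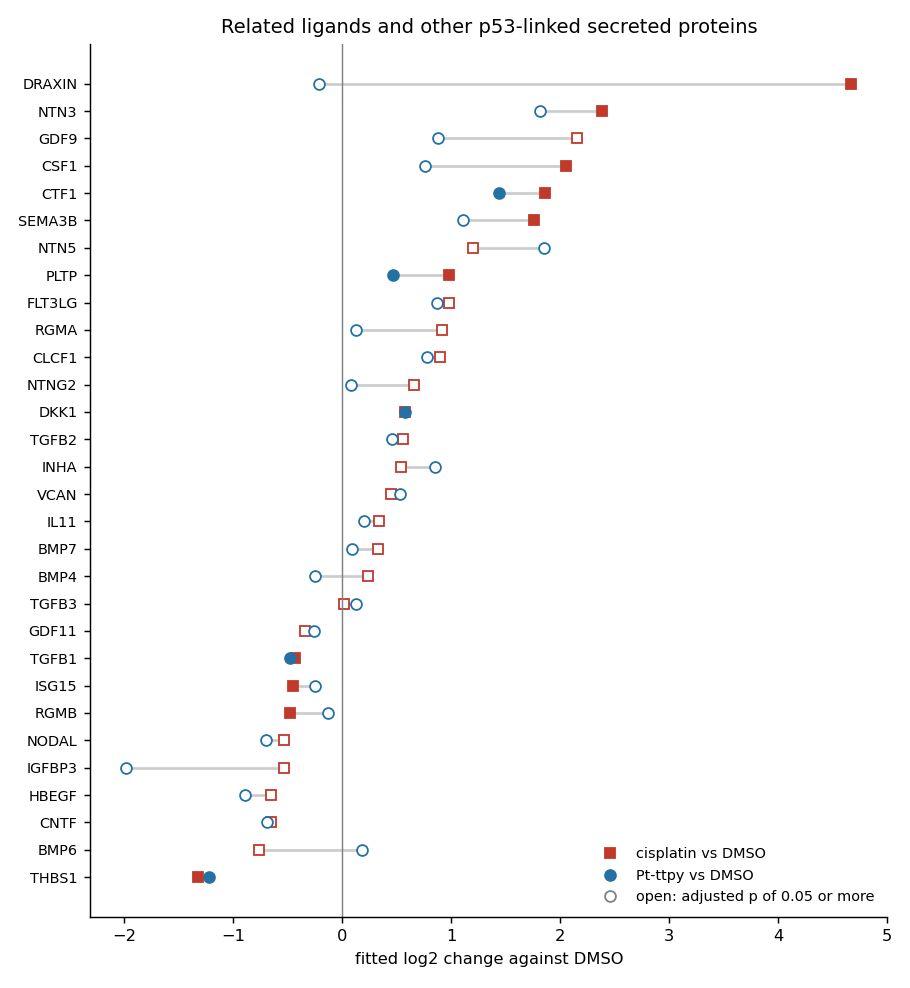
Fitted log2 changes against DMSO (x axis) of tested related ligands and other p53-linked secreted proteins (y axis), for cisplatin (squares) and Pt-ttpy (circles). Filled symbols passed an adjusted p of 0.05, and a grey line joins the values of 1 gene. DRAXIN reaches 4.67 with cisplatin and is at -0.21 with Pt-ttpy, while CTF1 is filled for both drugs.

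Among 15 other secreted or shed proteins linked to p53, 10 were tested. CSF1 belongs to this list and to the related ligands, so it is counted in both. Cisplatin against DMSO called 5 higher and 2 lower (list median 0.51), Pt-ttpy against DMSO 2 higher and 1 lower (0.21), and Pt-ttpy against cisplatin 0 higher and 2 lower (-0.38). PLTP, a phospholipid transfer protein, rose from 80.1 ± 11.8 CPM to 158 ± 21.6 with cisplatin (log2 0.98, edgeR adjusted p = 0.000754) and 111 ± 2.99 with Pt-ttpy (log2 0.47, edgeR adjusted p = 0.0353). DKK1, a Wnt inhibitor, rose by 0.58 with each drug (edgeR adjusted p = 0.0144 for cisplatin and 0.023 for Pt-ttpy). SEMA3B, a semaphorin, rose by 1.76 with cisplatin (SE 0.41, edgeR adjusted p = 0.0133), and this call was lost without DMSO 3 (0.0501). Its libraries were at 2.36, 4.32 and 2.05 CPM in DMSO and 7.18, 16.7 and 5.63 CPM with cisplatin. The size of this rise thus leaned on cisplatin 2. THBS1, an inhibitor of blood vessel growth, fell with cisplatin by a log2 change of -1.32 (edgeR adjusted p = 0.02) and with Pt-ttpy by -1.22 (edgeR adjusted p = 0.0378). The Pt-ttpy calls of PLTP and THBS1 were each lost in 5 of 9 fits without 1 library, with adjusted p up to 0.126 and 0.148, and that of DKK1 in 4 of 9, up to 0.0921. In each of these cases the fits without DMSO 3 or any Pt-ttpy library were among them, with DMSO 1 added for PLTP and DMSO 2 for THBS1. Of the cisplatin calls, that of DKK1 was lost without DMSO 3 (0.0527) and from the 6 libraries alone, and that of THBS1 without DMSO 3, cisplatin 1 or cisplatin 2 (up to 0.0774). Exons of CTSA and FSIP1 on the opposite strand cover 7.87% of PLTP and 4.89% of THBS1.

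GDF15 is made as a precursor that furin-type proteases cut, and KITLG can be shed from the cell surface by metalloproteases. Of 9 genes for such enzymes, 6 were tested, with 0 higher and 1 lower for cisplatin against DMSO, 0 higher and 2 lower for Pt-ttpy against DMSO and 0 called between the drugs. The protease PCSK7 fell from 67 ± 8.76 CPM to 46.1 ± 0.44 with cisplatin (log2 -0.54, edgeR adjusted p = 0.00845) and to 46.8 ± 1.87 with Pt-ttpy (log2 -0.52, edgeR adjusted p = 0.0172). FURIN fell with Pt-ttpy by a log2 change of -0.49 (SE 0.14, edgeR adjusted p = 0.0401), while its cisplatin difference was -0.27 (SE 0.14, edgeR adjusted p = 0.179). The difference between the drugs for FURIN was -0.21 (edgeR adjusted p = 0.753). Leaving out any 1 Pt-ttpy library ended the Pt-ttpy calls of PCSK7 and FURIN (adjusted p up to 0.0841 and 0.143), and FURIN also lost its call without DMSO 2, DMSO 3 or cisplatin 3 and with upper-quartile factors.

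For LIF signalling, 10 of 11 listed genes of the gp130, JAK and STAT3 pathway and its response were tested. The list holds parts of the pathway itself, namely STAT3, JAK1, JAK2 and the interleukin-6 receptor IL6R. Not every gene on it is therefore a response to LIF. STAT3, JAK2, IL6R, SOCS3, SOCS1 and CISH were called in no contrast. Cisplatin, where LIF stood higher, called 2 higher and 2 lower, Pt-ttpy against DMSO 0 higher and 1 lower, and Pt-ttpy against cisplatin 0. The list medians were 0.10, -0.12 and -0.23. BCL3 and PIM1, both known STAT3 targets, rose with cisplatin by 0.67 (SE 0.18, edgeR adjusted p = 0.0244) and 0.79 (SE 0.23, edgeR adjusted p = 0.032). The kinase gene JAK1 fell by a log2 change of -0.31 (edgeR adjusted p = 0.0402), and the immediate early gene JUNB by -0.75 (edgeR adjusted p = 0.0156) with cisplatin and -0.67 (edgeR adjusted p = 0.0343) with Pt-ttpy. These calls were fragile. JAK1 lost its call in 8 of 9 fits without 1 library (all but DMSO 2) and with DESeq2 size factors, upper-quartile factors or no filter, and PIM1 in 5, without any DMSO library, cisplatin 2 or Pt-ttpy 2 (adjusted p up to 0.105 and 0.104). BCL3 lost it without DMSO 1, DMSO 3 or cisplatin 2 (up to 0.0758). JUNB lost both calls in the fit without DMSO 2 and cisplatin 2, and its Pt-ttpy call also without DMSO 1, DMSO 2 or any Pt-ttpy library (up to 0.13). From the 6 libraries of the contrast alone, all 4 of these cisplatin calls were lost. Exons of HOOK2 on the opposite strand cover 14.2% of JUNB.

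The integrated stress response, a second route to GDF15, was represented by 14 genes, all tested. They include EGR1, an immediate early gene that is not specific to this response. The genes called in no contrast were ATF4, DDIT3, CHAC1, ASNS, PSAT1, PPP1R15A, CEBPB, EIF2AK3 and EGR1. Cisplatin against DMSO called 2 higher and 1 lower, Pt-ttpy against DMSO 3 higher and 0 lower, and Pt-ttpy against cisplatin 0, with list medians of -0.15, -0.06 and 0.08. DDIT4, an inhibitor of mTORC1, rose with both drugs, by 1.65 with cisplatin (SE 0.31, edgeR adjusted p = 0.00669) and by 1.58 with Pt-ttpy (SE 0.31, edgeR adjusted p = 0.0154). SESN2, a stress sensor that is also a p53 target, rose with cisplatin by 0.93 (SE 0.14, edgeR adjusted p = 0.00164), whereas the pseudokinase gene TRIB3 fell by a log2 change of -0.78 (edgeR adjusted p = 0.00538). VLDLR, a lipoprotein receptor, and ATF3, a stress-induced transcription factor, rose with Pt-ttpy by 1.40 (SE 0.37, edgeR adjusted p = 0.0327) and 1.53 (SE 0.45, edgeR adjusted p = 0.0445). Their calls were lost in 6 and 7 of 9 fits without 1 library (adjusted p up to 0.125 and 0.136), each time with any Pt-ttpy library left out. For VLDLR the rest were the 3 DMSO libraries, and for ATF3 they were DMSO 2, DMSO 3, cisplatin 1 and cisplatin 3. VLDLR also lost its call with no filter on low counts. DDIT4 lost its Pt-ttpy call without DMSO 2, Pt-ttpy 2 or Pt-ttpy 3 (up to 0.0577), and its cisplatin call in the fit without both DMSO 2 and cisplatin 2.

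For the non-secreted p53 targets, 26 of 27 were tested. Cisplatin against DMSO called 25 of them higher (list median 1.19) and Pt-ttpy against DMSO 10 (median 0.40), with 0 lower in both, and Pt-ttpy against cisplatin called 16 lower and 0 higher (median -0.89). CDKN1A, the cell cycle inhibitor p21, was at 15.4, 17 and 14.5 CPM in DMSO, 142, 160 and 114 CPM with cisplatin and 29.9, 36.3 and 30.8 CPM with Pt-ttpy, the same order of groups as GDF15. CDKN1A rose by 3.15 on the log2 scale (SE 0.15) with cisplatin (edgeR adjusted p = 1.2e-06) and by 1.05 (SE 0.14) with Pt-ttpy (edgeR adjusted p = 0.00327), and was lower with Pt-ttpy than with cisplatin by -2.10 (SE 0.14, edgeR adjusted p = 7.57e-05). SPATA18, a mitochondrial quality control gene, BTG2, an antiproliferative gene, and ZMAT3, an RNA-binding protein gene, rose with cisplatin by 2.78, 1.99 and 1.79. TP53I3 and PHLDA3 were lower with Pt-ttpy than with cisplatin by -1.54 and -1.28 (edgeR adjusted p = 0.000605 and 0.00113). GADD45A, a growth arrest gene, rose with Pt-ttpy by 1.08 (edgeR adjusted p = 0.00454) and TP53INP1 by 1.10 (edgeR adjusted p = 0.00351). Each call named for these targets held in all 9 fits without 1 library, but some other calls of the same genes did not. For Pt-ttpy against DMSO, BTG2 and ZMAT3 each lost theirs in 1 fit. For Pt-ttpy against cisplatin, SPATA18 lost its call in 2 fits, GADD45A in 4 and TP53INP1 in 5.

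The tested genes whose profiles over the 9 libraries were most like those of the factors were found by the root-mean-square difference of log2(CPM + 0.5) profiles, each centred on its own mean. This likeness is a description over 9 libraries, among which DMSO 2 and cisplatin 2 share a trend with GC content. The gene nearest to GDF15 was CDKN1A, at 0.301, followed by GRIP2 (0.343), RINL (0.371), PLXNB3 (0.43) and SULF2 (0.44). The last 4 averaged only 0.465, 0.947, 0.0333 and 0.126 CPM in DMSO, so the prior of 0.5 CPM narrows their differences in these profiles. Their fitted levels were 20.6-, 13.5-, 178- and 33.4-fold higher with cisplatin than in DMSO, beside 11.7-fold for GDF15. These genes were picked for profiles like that of GDF15, so a rise with cisplatin follows from the choice and is not a separate result. In DMSO 1 to 3, PLXNB3 had 0, 0 and 4 counts and SULF2 had 0, 8 and 6. The sizes of these folds are therefore not settled, above all the 178-fold of PLXNB3. LIF was nearest to BAX, at 0.136, the gene of a pro-apoptotic BCL2 family protein, and then to NOTCH1 (0.174), CLIP2 (0.175), CALCOCO1 (0.18) and GMPR (0.189). BAX stood at 38, 45 and 33.9 CPM in DMSO, 69.4, 80.2 and 65 CPM with cisplatin and 37.6, 37.3 and 37 CPM with Pt-ttpy, so that, like LIF, it was higher in cisplatin libraries than in all others. NTN1 was nearest to CDIP1 (0.161) and BAX (0.164), then to NINJ1 (0.172), SLC43A2 (0.174) and TNFSF9 (0.175). The genes nearest to KITLG were MTRF1L (0.114), TRMT6 (0.139), SBDS (0.147), LCLAT1 (0.15) and SRSF6 (0.15), whose profiles had their lowest point in cisplatin 2, as did KITLG. With a prior of 2 CPM in place of 0.5, the 5 nearest shared 2 genes for GDF15, 3 for LIF, 4 for NTN1 and 0 for KITLG.

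Among the factors, LIF and NTN1 had the most similar profiles, with a difference of 0.259. KITLG differed by 0.67 from NTN1 and by 0.792 from LIF. GDF15 was farther from the others, by 1.03 from LIF, 1.19 from NTN1 and 1.73 from KITLG. The profiles were centred but not scaled, so this measure grows with the size of a gene's differences as well as with their shape. The prior of 0.5 CPM also flattens KITLG. The values therefore do not show that KITLG follows LIF and NTN1 more closely than GDF15 does. Cisplatin libraries were the highest for GDF15, LIF and NTN1, but not for KITLG.

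**Figure D5:**
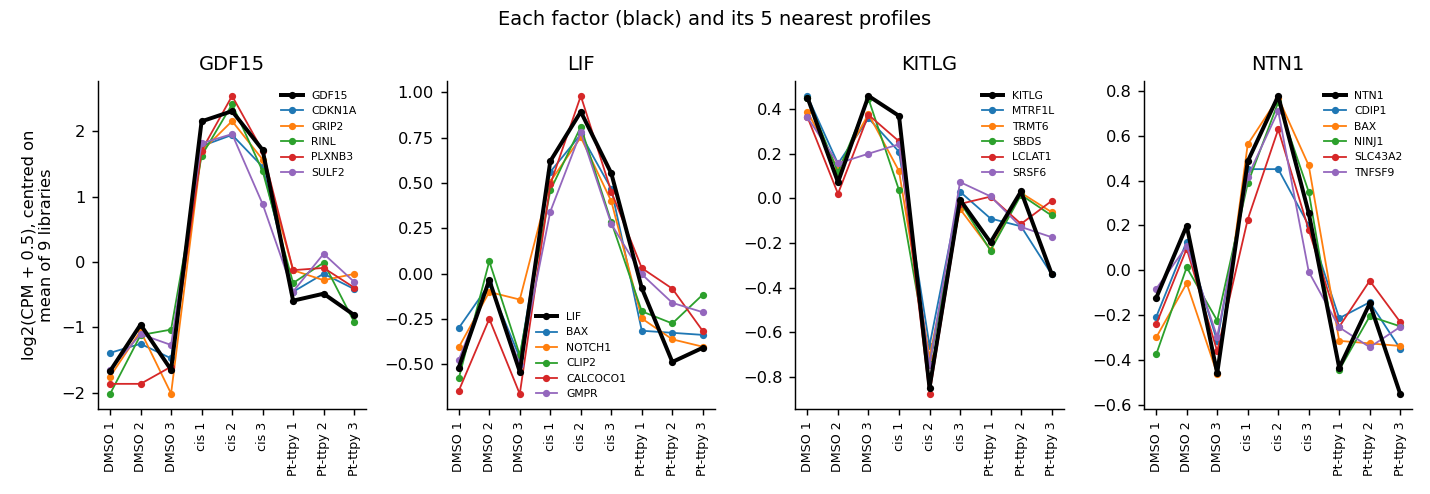
Centred log2(CPM + 0.5) (y axis, separate scales) of each factor (black) and its 5 nearest genes (colours) over the 9 libraries (x axis, cis for cisplatin). GDF15, LIF and NTN1 and their nearest genes peak in the cisplatin libraries, and KITLG and its nearest genes are lowest in cisplatin 2.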

How the data were processed

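Total RNA of A2780 cells was made into mRNA libraries, per the labels' protocols. The authors deposited raw counts per gene for 9 libraries, 3 per group. The genome build was GRCh38, per the submitters' processing notes, and aligner, counter and strand setting were not given in the sources used here. Groups came from the sample labels, and 0 columns of counts were left unmapped. R 4.3.3 and edgeR 4.0.16 were used: low genes were removed by filterByExpr (minimum count 10), library sizes were adjusted by TMM, and a robust quasi-likelihood model held 1 mean per group of the 9 libraries. A call is a Benjamini-Hochberg adjusted p under 0.05 over 15558 genes per contrast. log2 changes carry a prior count of 0.125. The fit was tested on simulated data. CPM are TMM-scaled, and exon lengths and overlaps came from GENCODE 29. Depth was 31.3 to 40.8 M counts, so 3 counts equal 0.0711 to 0.0966 CPM.

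The 4 factors and all gene lists were chosen with earlier results of these data known. Named are the factors, every tested receptor, up to 4 called genes per other list and contrast by adjusted p, and the 5 genes of at least 1 CPM nearest in profile to each factor. A gene named for 1 contrast may also be given for another. Some genes named by the rule are not reported here, though the counts over their lists hold them. Genes with overlapping exons are named for their position only. In the STAT3 and integrated stress response lists, genes called in no contrast are named to show what the lists hold. The cell type markers named and the 4 genes added by the block were chosen after their values were seen. The pseudocounts of profiles were 0.5 and 2 CPM. Deviations from group means of same-numbered libraries correlated at 0.20, 0.35 and 0.18 between DMSO and cisplatin, and at -0.04 to 0.09 in pairs with Pt-ttpy. DMSO 2 and cisplatin 2 share a trend with GC content, and deviations within a group are not independent of each other. These correlations therefore cannot tell pairing from that trend, and the labels give no pairing. No 2 libraries were duplicates. Alternatives were DESeq2 1.42.0 (size factors, Wald test), upper-quartile factors, no filter, a replicate block, the 6 libraries of a contrast, 7 libraries (without DMSO 2 and cisplatin 2) and each library left out. Motifs were searched with Python 3.11.15.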

Additional observations from a re-analysis of the deposited data

How the results depend on the processing

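In 187 of 192 comparisons of a factor's log2 difference with an alternative, it stayed within 1 SD of the value reported. The exceptions were all KITLG. The SD was the pooled within-group SD of the factor's log2 level, from 0.232 for LIF to 0.398 for KITLG. This bound is wide for small differences. NTN1 for Pt-ttpy against DMSO, at -0.27 and at -0.08 in the 7-library fit, stayed within it. For Pt-ttpy against cisplatin, KITLG was -0.54 in the 7-library fit, 0.03 with the replicate block and -0.53 to 0.37 with 1 library left out, the reversal coming without cisplatin 1. For cisplatin against DMSO, KITLG ran from -1.10 to -0.20 with 1 library left out. The cause was not tested. KITLG had only 13 to 60 counts per library, which limits what can be said of it. Its lowest count was in cisplatin 2, the cisplatin library with the highest total, 39.5 M.

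Counts of all called genes depended more on the setting. Pt-ttpy against DMSO gave 1874 genes, 2853 with DESeq2's Wald test, 5189 with 7 libraries and 185 to 3004 with 1 library left out. Cisplatin against DMSO gave 3190, 1313 from its 6 libraries alone and 2012 to 3100 with 1 left out. Pt-ttpy against cisplatin gave 80, with 253 by the Wald test, 140 with the replicate block, 813 with 7 libraries and 18 to 155 with 1 left out. In the 7 gene lists, Pt-ttpy against DMSO called 22 genes, 44 with 7 libraries and 6 to 33 with 1 left out. Cisplatin against DMSO called 48, and 34 to 46 with 1 left out. Pt-ttpy against cisplatin called 19, with 29 by the Wald test, 38 with 7 libraries and 6 to 24 with 1 left out. For cisplatin against DMSO, the replicate block lost 0 of the 48 and added 4 (BMP7, EGR1, GDF9 and TIGAR). It changed no other call among the list genes there. For Pt-ttpy against DMSO and against cisplatin, the block gave 32 and 25 genes of the lists. In every contrast the labels link libraries by replicate number only.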
